A study of Mus musculus with 9 samples.

Results

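Among YFP-positive cells sorted as pyramidal neurons from the mouse amygdala, the transcripts of 8 genes used as markers of astrocytes were followed in single mice. The genes are Slc1a2, Glul, Aldoc, Aqp4, Aldh1l1, Gjb6, Cst3 and Slc7a10, and their rows were found by symbol. All 8 had a row in both deposited tables, that is 8 of 9872 genes listed for BA and AV mice and 8 of 11820 genes listed for BA and AP mice. Each table holds 1 normalized expression value per gene and mouse.

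All mice were B6.Cg-Tg(Thy1-YFP)HJrs/J transgenics, in which the Thy1 promoter drives YFP in pyramidal neurons of the amygdala, and also in neurons of other regions. They differed in their behavior in a conflict task, which was balancing in BA mice, avoiding in AV mice and approaching in AP mice, with 3 mice labelled for each. YFP-positive cells were sorted from the dissociated amygdala of each mouse, so that 1 library is 1 animal, and the age of the mice is not given in the sources used here. AV replicate 2, which the authors removed as an outlier, was not analysed here. The comparisons therefore set 2 AV mice and, in the other table, 3 AP mice against the same 3 BA mice.

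Astrocytes clear glutamate from the synapse, return it to neurons as glutamine, hold water and potassium in balance through channels in their end-feet, and are joined to one another by gap junctions. The 8 markers stand for these tasks. Slc1a2 encodes the main glutamate transporter of the forebrain and Glul the enzyme glutamine synthetase, which oligodendrocytes also express. Aldoc encodes the brain form of the glycolytic enzyme aldolase, Aldh1l1 a dehydrogenase of folate metabolism, Aqp4 the water channel of the end-feet and Gjb6 the gap junction protein connexin 30. Cst3 encodes cystatin C, a secreted inhibitor of cysteine proteases that microglia express as well, and Slc7a10 the neutral amino acid exchanger Asc-1, which carries D-serine and glycine.

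Sums over all genes ranged from 3267967 to 3974274 per mouse in the BA vs AV table, where the reads behind each value cannot be recovered. They ranged from 4589304 to 5072766 in the BA vs AP table, where the listed values rest on an estimated 3816848 to 6719780 counted reads per mouse. The labelled cell type was checked against its markers. Of 9 excitatory neuron markers, only Nrgn, Camk2a and Grin2b were listed in either table, and of 9 pan-neuronal markers only Map2 and Tubb3. Slc17a7, Neurod6, Snap25 and Thy1 itself had no row in the tables as used here. The 3 excitatory markers summed to between 0.00531% and 0.00619% of all values in BA mice of the BA vs AV table, where 12 listed oligodendrocyte lineage markers summed to between 5.20% and 6.15% and the 8 astrocyte markers to between 0.468% and 0.524%. In such bulk samples more cells of a type and more RNA per cell cannot be told apart.

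The genes were located with the GENCODE M21 annotation of GRCm38. Slc1a2 (ENSMUSG00000005089.15) spans chr2:102658659-102790784 on the plus strand and Cst3 chr2:148871722-148875692 on the minus strand. Glul spans chr1:153899944-153909723, Aldoc chr11:78322968-78327781, Aldh1l1 chr6:90486427-90600203 and Slc7a10 chr7:35186385-35201114, all on the plus strand. Gjb6 spans chr14:57123303-57133611 on the minus strand. The exons of Slc1a2, Glul, Aldh1l1 and Slc7a10 overlap those of a gene on the opposite strand, and whether counting used the strand is not given in the sources used here. Of the runs of 75 bases, the read length, in Glul transcripts, 5.92% also occurred in transcripts of other genes, mainly the pseudogene Glns-ps1, so that its value is less certain. This share was 0.667% for Aldh1l1, 0.0993% for Slc1a2 and 0 for the other 5 genes.

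The 250 bases before the transcription start in RefSeq (GRCm38.p6) are shown for 4 of the markers. Slc1a2 and Aldh1l1 put the mice in the same order in both tables, while Gjb6 and Slc7a10 did not follow them. The windows lie at chr2:102706188-102706437 on the plus strand for Slc1a2, chr6:90550543-90550792 on the plus strand for Aldh1l1, chr14:57133612-57133861 on the minus strand for Gjb6 and chr7:35186135-35186384 on the plus strand for Slc7a10. Each reads 5′ to 3′ on the strand of the gene, with matches to a motif in capitals.
Slc1a2: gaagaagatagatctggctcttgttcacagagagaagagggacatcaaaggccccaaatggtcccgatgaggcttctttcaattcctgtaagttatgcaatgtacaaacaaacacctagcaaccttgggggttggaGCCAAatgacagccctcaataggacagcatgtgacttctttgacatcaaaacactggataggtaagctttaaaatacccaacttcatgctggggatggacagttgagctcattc
Aldh1l1: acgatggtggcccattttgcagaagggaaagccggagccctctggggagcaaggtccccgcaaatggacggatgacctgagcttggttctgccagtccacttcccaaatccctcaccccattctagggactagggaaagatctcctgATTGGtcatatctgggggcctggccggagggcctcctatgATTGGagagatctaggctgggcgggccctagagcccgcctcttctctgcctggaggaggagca
Gjb6: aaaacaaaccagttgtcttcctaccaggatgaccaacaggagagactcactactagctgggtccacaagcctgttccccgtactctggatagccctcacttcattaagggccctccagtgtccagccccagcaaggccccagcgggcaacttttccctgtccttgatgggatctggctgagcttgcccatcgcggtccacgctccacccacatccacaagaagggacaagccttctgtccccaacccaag
Slc7a10: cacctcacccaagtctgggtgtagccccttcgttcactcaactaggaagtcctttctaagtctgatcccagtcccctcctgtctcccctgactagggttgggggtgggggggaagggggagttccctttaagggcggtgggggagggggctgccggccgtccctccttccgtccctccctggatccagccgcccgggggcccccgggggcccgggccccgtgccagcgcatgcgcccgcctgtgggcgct
The motifs searched, on both strands, were the half-site of nuclear factor I (TTGGC), the CCAAT box (CCAAT, which can overlap the half-site), the TATA box (TATAAA), a STAT motif (TTCNNNGAA) and a SOX motif (ACAAAG). The Slc1a2 window holds 1 half-site, a motif found in 41.9% of 27025 promoter windows of the same length, and the Aldh1l1 window holds 2 CCAAT boxes, found in 34.5% of them. The Gjb6 and Slc7a10 windows hold none of the 5 motifs. Among the markers not shown, the Glul window holds 2 half-sites and 2 CCAAT boxes, although Glul did not follow Slc1a2 either. Of the Aldoc windows, 1 holds 1 half-site and the other 2 STAT motifs, and that of Cst3 holds none. The motifs thus do not divide the markers by their pattern across mice. G and C make up 44.8% of the Slc1a2 window, 59.6% of that of Aldh1l1, 56.8% of that of Gjb6 and 69.6% of that of Slc7a10, against a median of 52% over all windows. The Slc1a2 and Aldh1l1 windows lie inside the gene models of GENCODE, which start further upstream, and 29 and 4 of their bases are in an annotated exon. A match describes the letters of the window and no binding.

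In BA mice the markers differed widely in level. Per kilobase of exon, on the scale of the BA vs AP table, Glul was at 3101 ± 776 (SD, n = 3), Cst3 at 1017 ± 147 and Slc1a2 at 699 ± 159. Aldoc followed at 214 ± 5.97, then Gjb6 at 118 ± 18.6, Aqp4 at 105 ± 12.8, Slc7a10 at 104 ± 28.8 and Aldh1l1 at 35.1 ± 7.29. The ranges of the 3 BA mice did not overlap between neighbours in this order, except among Gjb6, Aqp4 and Slc7a10, whose levels could not be told apart. In the BA vs AV table the BA ranges of Cst3 and Slc1a2 overlapped as well. Glul thus lay within the top 21 of all genes per kilobase in every BA mouse, whereas Aldh1l1, the folate enzyme, lay between the 41.6 and the 61.1 percentile.

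In comparison to BA mice, AV mice had 4 of the 8 markers significantly higher. These were cystatin C, the glutamate transporter, aldolase C and the water channel, and the increase was between 2.43-fold and 4.40-fold. Over all 9872 genes, 13.6% were called higher in AV mice with limma at a Benjamini-Hochberg adjusted p under 0.05, the rule used throughout. Fold changes are on the log2(value + 1) scale, and a positive log2 fold change means a higher value in AV or AP mice.

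**Figure D1:**
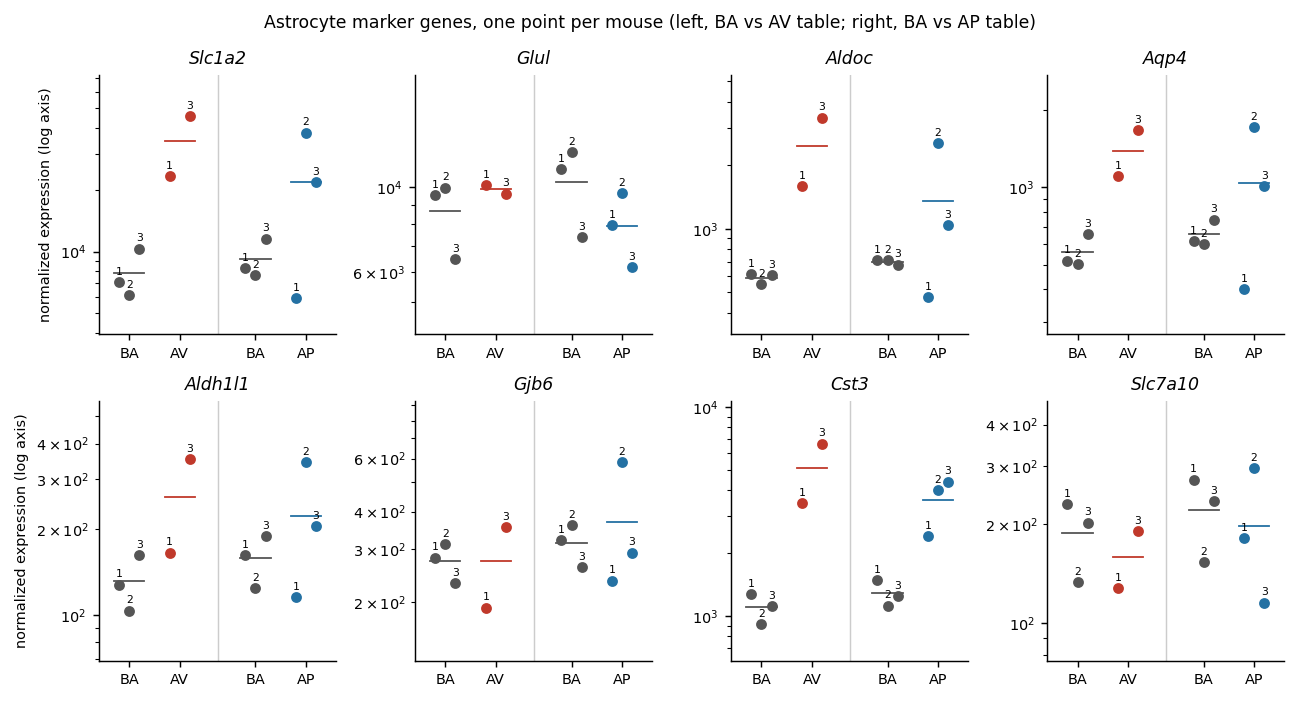
Normalized expression of each of the 8 markers (log axis), 1 point per mouse numbered by replicate and a line at the group mean, with the BA vs AV table to the left and the BA vs AP table to the right of each panel. Both AV mice lie above all BA mice for Slc1a2, Aldoc, Aqp4, Aldh1l1 and Cst3, and the 3 AP mice spread from below to above the BA mice for Slc1a2, Aldoc, Aqp4 and Aldh1l1.

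Slc1a2 was at 7089, 6109 and 10326 in BA replicates 1, 2 and 3 and at 23374 and 45468 in AV replicates 1 and 3. Both AV mice were above the highest BA mouse, and AV replicate 3 was 1.95-fold above AV replicate 1. The log2 fold change was 2.09 ± 0.37 (SE), with a limma adjusted p of 0.00804. Per kilobase, Slc1a2 rose from between rank 67 and rank 167 of the table in BA mice to ranks 14 and 8 in AV mice.

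Cst3 was at 1278, 917 and 1116 in BA mice and at 3471 and 6684 in AV replicates 1 and 3, without overlap. Its log2 fold change of 2.14 ± 0.33 (SE) was the largest among the 8 markers, with a limma adjusted p of 0.00576. In both AV mice cystatin C stood among the 8 highest genes of the table per kilobase.

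Aldoc was at 610, 547 and 605 in BA mice and at 1596 and 3361 in AV replicates 1 and 3. The BA mice were close together and both AV mice far above them. The log2 fold change was 1.98 ± 0.34 (SE), with a limma adjusted p of 0.00733.

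Aqp4 was at 519, 502 and 658 in BA mice and at 1101 and 1666 in AV replicates 1 and 3. Here too the groups did not overlap, and the log2 fold change was 1.28 ± 0.27 (SE), with a limma adjusted p of 0.0148. The call was lost when either of a pair of BA mice was left out. Without BA replicate 1 the log2 fold change was 1.23 with a limma adjusted p of 0.0592, and without BA replicate 2 it was 1.21 with 0.0642.

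Aldh1l1 was at 128, 103 and 162 in BA mice and at 166 and 353 in AV replicates 1 and 3. Both AV mice were above the BA mice, but AV replicate 1 was above BA replicate 3 by a small margin. The log2 fold change was 0.90 (95% interval 0.018 to 1.79), and limma did not call the gene (adjusted p = 0.110). Leaving out AV replicate 3, it was 0.36 (limma adjusted p = 0.419), leaving out BA replicate 2, 0.75 (limma adjusted p = 0.273), and leaving out AV replicate 1, 1.45 and called (limma adjusted p = 0.00811). Where an AV mouse is left out, here and in later counts, 1 AV mouse remains and is assumed to vary like the BA mice. In all, groups did not overlap for 5 of 8 markers, each higher in AV mice, while this was so for 27.7% of all genes.

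The other 3 markers, for glutamine synthesis, gap junctions and D-serine exchange, overlapped between the groups. Glul was at 9551, 9978 and 6479 in BA mice and at 10126 and 9616 in AV replicates 1 and 3. AV replicate 1 was the highest of the 5 mice and AV replicate 3 lay among the BA mice, and the log2 fold change was 0.21 (95% interval -0.42 to 0.84, limma adjusted p = 0.574). Gjb6 was at 282, 312 and 231 in BA mice and at 192 and 355 in AV replicates 1 and 3, the lowest and the highest of the 5 mice. Its log2 fold change was -0.063 (95% interval -0.82 to 0.69, limma adjusted p = 0.899), and it was 0.13 with values scaled to equal totals and 0.38 without AV replicate 1. Slc7a10 was at 229, 133 and 202 in BA mice and at 128 and 190 in AV replicates 1 and 3, with a log2 fold change of -0.23 (95% interval -0.99 to 0.52, limma adjusted p = 0.608). The upper bounds for Glul, Gjb6 and Slc7a10 are below the log2 fold changes found for Slc1a2, Aldoc, Aqp4 and Cst3, but the intervals of Glul and Gjb6 overlap that of Aqp4. The median log2 fold change of the 8 markers was 1.09, and that of all genes -0.026.

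**Figure D2:**
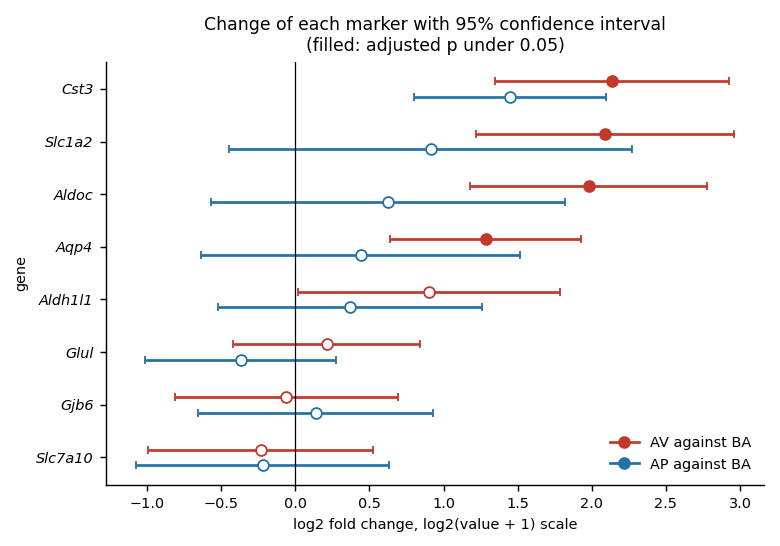
Log2 fold change of each marker against BA mice with its 95% confidence interval, for AV mice (red) and AP mice (blue), filled where the adjusted p from limma was under 0.05. Cst3, Slc1a2, Aldoc and Aqp4 are filled for AV mice, no marker is filled for AP mice, and the AP interval lies above 0 for Cst3 alone.

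In comparison to BA mice, no marker was called in AP mice. The limma test called 1 gene of all 11820, or 0.00846%, and 0% as higher. At an unadjusted p under 0.05, 1 of the 8 markers passed, Cst3, against 7.77% of all genes. Groups did not overlap for 1 of 8 markers, again Cst3, which was higher, and 5.64% of all genes were of this kind. The AP mice differed strongly among themselves.

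Cst3 was at 1490, 1122 and 1251 in BA mice and at 2404, 4017 and 4396 in AP replicates 1, 2 and 3. All AP mice were above all BA mice. The log2 fold change was 1.45 (95% interval 0.80 to 2.10), with a limma adjusted p of 0.248.

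Slc1a2 was at 8318, 7658 and 11549 in BA mice and at 5919, 37976 and 21831 in AP replicates 1, 2 and 3. AP replicate 1 was below every BA mouse and the other AP mice were above them, so the glutamate transporter differed 6.42-fold within the AP group. The log2 fold change was 0.91 (95% interval -0.45 to 2.27, limma adjusted p = 0.718). It was 0.33 without AP replicate 2 and 1.67 without AP replicate 1, and the gene was called in neither case.

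Aldoc was at 711, 709 and 676 in BA mice and at 474, 2556 and 1039 in AP mice, Aqp4 at 616, 603 and 747 and at 401, 1715 and 1008, and Aldh1l1 at 162, 124 and 190 and at 116, 345 and 205. All of them repeated the arrangement of Slc1a2, with AP replicate 1 lowest and AP replicate 2 highest of the 6 mice. Their log2 fold changes were 0.63, 0.44 and 0.37, with limma adjusted p values of 0.770, 0.811 and 0.809. The difference rested on AP replicate 2, without which the log2 fold changes were 0.0067 for Aldoc, -0.036 for Aqp4 and -0.018 for Aldh1l1.

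Gjb6 was at 322, 361 and 262 in BA mice and at 236, 583 and 293 in AP mice, with a log2 fold change of 0.14 (limma adjusted p = 0.922), and of -0.25 without AP replicate 2. Glul was at 11148, 12355 and 7408 in BA mice and at 7946, 9656 and 6158 in AP mice, with -0.37 (limma adjusted p = 0.760). Slc7a10 was at 273, 154 and 235 in BA mice and at 182, 295 and 116 in AP mice, with -0.22 (limma adjusted p = 0.883), and of 0.11 without AP replicate 3. For these genes the AP mouse with the highest value was again replicate 2, but the lowest was replicate 1 for Gjb6 and replicate 3 for Glul and Slc7a10. The median log2 fold change over the 8 markers was 0.40, and that of all genes -0.032.

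The comparisons share their BA mice and were not tested against each other. The tables may also have been corrected for batch differently, so their numbers of called genes cannot be compared. The log2 fold changes for AV and for AP mice, side by side, were 2.14 and 1.45 for Cst3, 2.09 and 0.91 for Slc1a2, 1.98 and 0.63 for Aldoc, and 1.28 and 0.44 for Aqp4.

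Which markers moved together was read from the mice themselves. In the BA vs AP table the order of the 6 mice was the same for the glutamate transporter, the water channel and the folate enzyme, namely AP replicates 2 and 3, BA replicates 3, 1 and 2, and AP replicate 1, from the highest to the lowest. In the BA vs AV table the same 3 genes again shared 1 order, AV replicates 3 and 1 followed by BA replicates 3, 1 and 2. The BA mice are the same in both tables, so their order is no second observation. Aldoc and Cst3 shared the order AV replicates 3 and 1, then BA replicates 1, 3 and 2.

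Across the 6 mice of the BA vs AP table, 28 pairs of markers were compared on log2(value + 1), and 7 had a Pearson r of at least 0.8. How many pairs among all genes reach this r was not counted, so whether the markers exceed other genes in this is not known. Slc1a2, Aqp4, Aldh1l1 and Aldoc made up 6 of these pairs, every pair possible among them, with r between 0.929 and 0.982. Slc1a2 and Aqp4 had the highest r, 0.982, with a Spearman rho of 1. The exact permutation p was 0.00139 for r, the smallest that permuting 6 mice can give, and 0.00278 for rho, and adjusted over the 28 pairs these were 0.0130 and 0.0259. Without the 2 mice farthest from the median of Slc1a2, r was 0.948.

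Slc1a2 with Aldh1l1 (r = 0.957) and Aqp4 with Aldh1l1 (r = 0.965) also had a rho of 1 and, by exact permutation, adjusted p values of 0.0130 for r and 0.0259 for rho. The 2 mice left out were those farthest from the median of 1 gene of the pair, and so differed between pairs. Without AP replicates 2 and 3, r was 0.931 for Slc1a2 with Aldh1l1. Without AP replicates 1 and 2, it was 0.831 for Aqp4 with Aldh1l1. Aldoc had an r of 0.965 with Aqp4, of 0.942 with Slc1a2 and of 0.929 with Aldh1l1. For each of these pairs rho was 0.829, and the adjusted exact permutation p was 0.0324 for r and 0.272 for rho. Without AP replicates 1 and 2, r was 0.861 with Aqp4 and 0.544 with Aldh1l1. Without AP replicates 2 and 3, it was 0.687 with Slc1a2. The relation of Aldoc to Slc1a2 and to Aldh1l1 thus rested in part on the mice left out, which were not the same for both. The remaining pair was Aldoc with Gjb6 (r = 0.899, rho = 0.771, adjusted exact permutation p = 0.111 and 0.411), whose r was -0.128 without AP replicates 1 and 2.

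The mice of both groups were pooled in these values, and 3 mice of 1 group are too few for a value of their own. With each group set to its own mean, 8 pairs reached 0.8. Without BA replicate 2, 11 pairs did, and without AP replicate 2, 5 pairs.

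**Figure D3:**
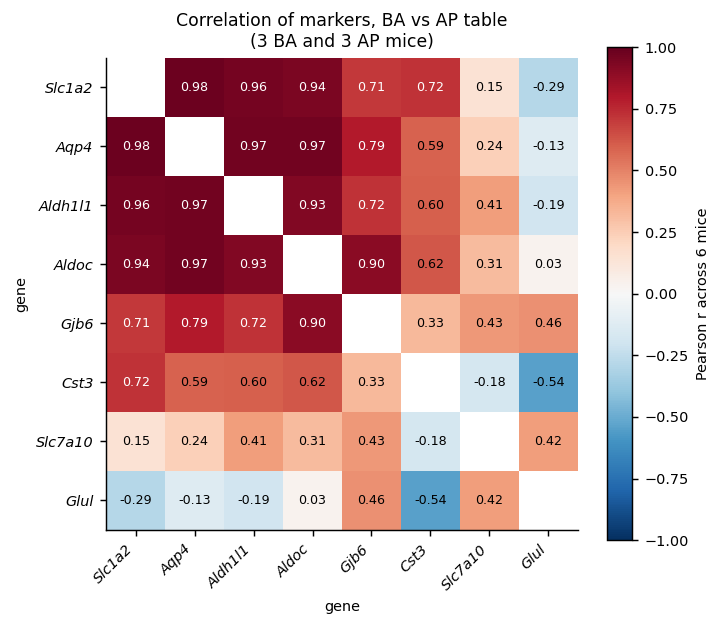
Pearson r between each pair of markers across the 3 BA and 3 AP mice of the BA vs AP table, on log2(value + 1), with red for positive and blue for negative values. Slc1a2, Aqp4, Aldh1l1 and Aldoc form a block with r of at least 0.929, while Slc7a10 and Glul reach at most 0.460 with any other marker.

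Cst3, Slc7a10 and Glul reached an r of 0.8 with no other marker. Cst3 had an r of 0.721 with Slc1a2 (rho = 0.543, adjusted exact permutation p = 0.325 and 0.622), which turned to -0.705 without AP replicates 2 and 3. With Aldoc, Aqp4 and Aldh1l1 its r was 0.620, 0.591 and 0.597, and 0.980, 0.895 and 0.680 without AP replicates 1 and 2, so these values depended on which mice were left out. AP replicate 1 was below every BA mouse in Slc1a2 and above every BA mouse in Cst3. Glul had an r of -0.287 with Slc1a2 and of -0.540 with Cst3, and its highest value lay in BA replicate 2, a mouse low in both. Slc7a10 had an r of 0.148 with Slc1a2, and BA replicate 1 and AP replicate 2 were its highest mice. None of the pairs with Cst3, Glul or Slc7a10 had an adjusted exact permutation p under 0.05.

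The ratio of a marker to Slc1a2 within a mouse does not depend on a single factor that scales a whole library. It is not free of processing, since the same mouse can differ between the tables. In BA replicate 2, Slc7a10 was at 2.18% in the BA vs AV table and at 2.01% in the BA vs AP table, and Gjb6 at 5.10% and 4.71%. In the BA vs AV table, Cst3 was at between 10.8% and 18.0% of the Slc1a2 value in BA mice and 14.7% to 14.8% in AV mice, and Aldoc at between 5.86% and 8.96% and between 6.83% and 7.39%. Both genes thus kept their proportion to the glutamate transporter within the range of the BA mice. The other 5 markers were lower against Slc1a2 in both AV mice than in any BA mouse. Slc1a2 itself had a log2 fold change of 2.09, against a median of -0.026 over all genes. A gene that rose less than Slc1a2 therefore tends to fall in this ratio, and how many of all genes did so was not counted. Glul was at 62.7% to 163% in BA mice and between 21.1% and 43.3% in AV mice, and Gjb6 at between 2.24% and 5.10% and between 0.781% and 0.822%. Slc7a10 was at between 1.96% and 3.24% in BA mice and between 0.418% and 0.546% in AV mice. For Aqp4 the ranges were 6.37% to 8.22% and 3.66% to 4.71%, and for Aldh1l1 1.57% to 1.80% and 0.708% to 0.777%, so that these genes lay above the BA mice in value and below them in proportion to Slc1a2. In the BA vs AP table the groups overlapped in all 7 ratios. For Glul, AP replicates 2 and 3 were at 25.4% and 28.2%, below the 64.1% of the lowest BA mouse, while AP replicate 1 was at 134%. Aqp4, Aldh1l1, Gjb6 and Slc7a10 were also below every BA mouse in AP replicates 2 and 3 and not in AP replicate 1. That of Cst3 was between 10.8% and 17.9% in BA mice and between 10.6% and 40.6% in AP mice, highest in AP replicate 1. These ratios are given without a test.

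**Figure D4:**
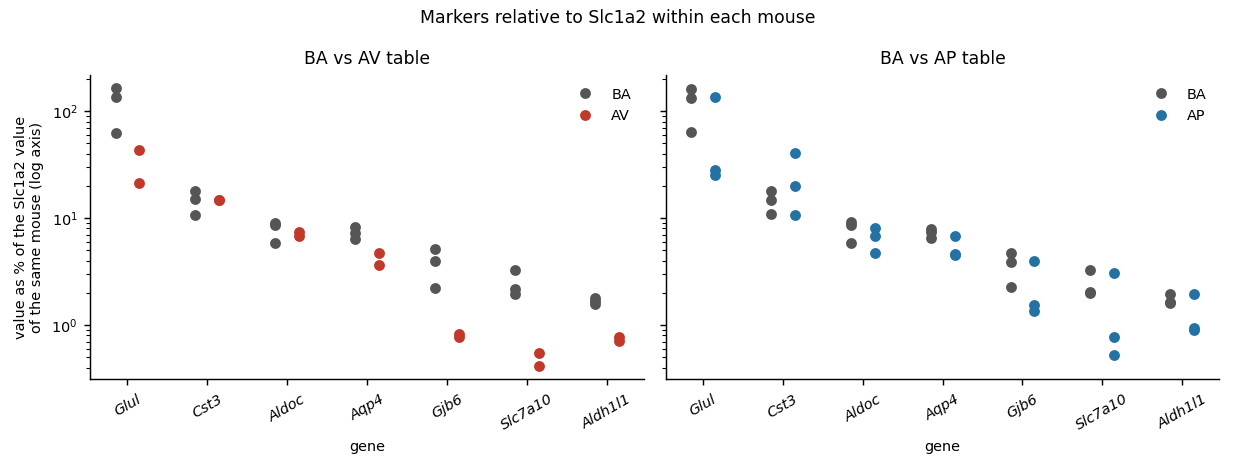
Value of each marker as a percent of the Slc1a2 value of the same mouse (log axis), 1 point per mouse, for the BA vs AV table (left) and the BA vs AP table (right). AV mice lie below all BA mice for Glul, Aqp4, Gjb6, Slc7a10 and Aldh1l1 and among them for Cst3 and Aldoc, and AP mice overlap with BA mice for every gene.

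Genes with the most similar pattern across the 6 mice were sought among 9185 genes whose mean was 50 or more. Those closest to Slc1a2 were Hlf (r = 0.999), Lix1 and Gpm6a (both 0.998), and those closest to Aqp4 were Elovl2 (0.991), Htra1 (0.990) and Cldn10 (0.988). Aldoc was closest to Arxes2, Atp1b2 and Bmyc, and Aldh1l1 to S1pr1, Rgs20 and Wnk2. Glul was closest to Aplp1 (0.997), Clip2 and Lman2, Cst3 to Camk1d (0.996), Slc7a5 and Grn, Gjb6 to Usf2, Btbd1 and Dag1, and Slc7a10 to Pomt2, Gpr137 and Trib2. No gene was among the 3 closest of more than 1 marker. With 6 mice, values of this size are a description of rank among many genes.

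Around each marker stand the other genes of its pathway. For glutamate and glutamine, 9 of 16 genes were listed in the BA vs AV table. Of these, 4 were called higher in AV mice and 1 lower, against 13.6% and 16.2% of all genes. Besides Slc1a2, the increases were in Slc1a3 (log2 fold change 1.29), the second glial glutamate transporter, in Glud1 (1.10), which oxidizes glutamate, and in Slc38a1 (1.79), a glutamine carrier. Slc38a2, another glutamine carrier, was lower (-1.59). Leaving out BA replicate 1 or 2, 3 of these genes were called in place of 5. Calls over all 9872 genes fell as well. Without BA replicate 1, 2 or 3, 782, 704 and 864 were called higher, in place of 1338. Those called lower were 811, 817 and 917, in place of 1596. The counts given for the lists below without a BA mouse stand beside these lower totals.

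Of the glycolytic enzymes around Aldoc, 13 of 17 listed genes were called higher in AV mice, against 13.6% of all genes, with a median log2 fold change of 1.19. The AV mice lay above the BA mice without overlap for all 17, Aldoc included, against 27.7% of all genes. The largest change was in Eno2 (2.22), the neuronal enolase, and Ldha (1.65), Ldhb (1.48) and Gapdh (1.01) were also called, whereas Pfkp (0.41) was not. Without BA replicate 1, 2 or 3, 7, 7 and 6 genes were called, against 782, 704 and 864 of all 9872 genes called higher.

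Of the aquaporins and the dystrophin complex that anchors Aqp4, 15 of 20 genes were listed. In AV mice 5 were called, all higher, against 13.6% of all genes. Besides Aqp4 they included Mlc1 (1.83), a membrane protein of astrocyte end-feet, Sntb2 (1.48), which encodes a syntrophin, and Dtnb (1.62), a dystrobrevin. Agrn, which encodes the matrix protein agrin, had a log2 fold change of -0.81 and Kcnj10, the potassium channel Kir4.1, of -0.61, and neither was called. Without BA replicate 1 or 2, 3 genes of this list were called.

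Among connexins and pannexins, 6 of 19 genes were listed and 1 called, Gjc3, the connexin 29 of myelinating cells, which was lower in AV mice (-2.07). This count is near the share of all genes called lower, 16.2%. Gja1, the connexin 43 that astrocytes express with connexin 30, had a log2 fold change of 0.72 and was not called. Leaving out AV replicate 1, or AV replicate 3, 2 genes were called. For neutral amino acid exchange and D-serine, 11 of 14 genes were listed. Slc7a8, a neutral amino acid exchanger, was called higher (2.54) and Psat1, of serine synthesis, lower (-0.85). These counts do not exceed the shares of all genes, 13.6% called higher and 16.2% lower. The calls of this list were 0 without BA replicate 1 or 2 and 1 without BA replicate 3. The racemase Srr, which makes D-serine, had a log2 fold change of 0.44 and was not called.

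Of the folate enzymes, 9 of 15 were listed and Folh1, which removes glutamate from folates, was called lower (-1.41), with 3 calls without AV replicate 1. Of cystatins and cathepsins, 9 of 18 were listed, and besides Cst3 only Ctsd, which encodes cathepsin D, was called (0.89). Without any one BA mouse 1 of these genes was called. The median log2 fold change was 0.013 for folate enzymes and 0.13 for cystatins and cathepsins, against -0.026 for all genes. Of all genes, 13.6% were called higher and 16.2% lower.

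In AP mice no gene of these lists was called with limma, as 0% of all genes were called higher. Without adjustment, 5 of 13 listed cystatins and cathepsins had a limma p under 0.05, all higher in AP mice, against 7.77% of all genes in either direction. Of the 13, 6 were higher without overlap between groups, against 5.64% of all genes. Ctss, which encodes the microglial cathepsin S, had the largest log2 fold change (1.89) and is also on the microglia list. The median was 0.38 for glycolysis, with 16 of 17 values above 0, 0.33 for glutamate and glutamine and 0.14 for aquaporins and the dystrophin complex. It was -0.19 for connexins and pannexins, 0.093 for neutral amino acid exchange and -0.16 for folate enzymes.

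Markers of other cells moved beside these results. Of 25 other astrocyte markers, 22 were listed in the BA vs AV table and 6 called, all higher in AV mice, against 13.6% of all genes. Among the 6 were Slc1a3, Clu (1.66), Apoe (1.28) and Ndrg2 (1.63). The median log2 fold change of the listed markers was 0.73. Hepacam (-0.64) and Kcnj10 were among 3 with values below 0. Without BA replicate 1, 2 or 3 the calls were 3, 2 and 3, where 782, 704 and 864 of all 9872 genes were called higher. Summed, the list took between 0.582% and 0.721% of all values in BA mice and between 1.03% and 1.86% in AV mice, and the 8 markers took between 0.468% and 0.524% and between 1.23% and 1.97%. Of the sum of the 8 markers, Slc1a2 alone held 23374 of 40154 in AV replicate 1 and 45468 of 67692 in AV replicate 3. In BA replicates 1, 2 and 3 it held 7089 of 19686, 6109 of 18603 and 10326 of 19780.

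Oligodendrocyte lineage markers summed to between 5.20% and 6.15% of all values in BA mice and between 1.73% and 2.55% in AV mice. Of 12 listed, 9 were called lower and 1, Pdgfra, which marks their precursors, higher. Over all genes, 16.2% were called lower and 13.6% higher. The 3 listed excitatory neuron markers were called higher in AV mice, with summed values of 211 to 235 in BA mice and 2492 to 3709 in AV mice. The 3 listed microglia markers, Cx3cr1, Tmem119 and C1qa, were also called higher, with sums of 237 to 354 and 722 to 939. Endothelial and mural markers had 4 of 11 listed and 1, Kdr, called lower (-2.86), with 2 called without AV replicate 1. Of 9 inhibitory neuron markers 1 was listed, Dlx1 (0.85, not called), and of the pan-neuronal markers Map2 was called higher (2.51). The part of these shifts in the change of the 8 markers was not tested.

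In AP mice, 21 of 24 listed other astrocyte markers had a log2 fold change above 0, with a median of 0.34, and 1 had an unadjusted p under 0.05. The largest was Gfap (1.205), the intermediate filament of astrocytes. All 11 listed microglia markers had an unadjusted limma p under 0.05, against 7.77% of all genes in either direction. All 11 were higher without overlap, against 5.64% of all genes. None was called after adjustment. Their median log2 fold change was 1.51, with sums of 1583 to 3202 in BA mice and 4333 to 7807 in AP mice. Cst3 also lay above the BA mice in all 3 AP mice, but in another order. In AP replicates 1, 2 and 3 the microglia sums were 5892, 4333 and 7807, and Cst3 was at 2404, 4017 and 4396. The excitatory neuron markers summed to 202 in AP replicate 1, below the 261 to 268 of BA mice, and to 1284 and 3245 in AP replicates 2 and 3, and 1 of them was called without AP replicate 1. AP replicate 1 was also the mouse lowest in Slc1a2, Aldoc, Aqp4, Aldh1l1 and Gjb6. Oligodendrocyte lineage markers summed to between 5.07% and 5.86% in BA mice and between 4.97% and 6.03% in AP mice. Endothelial and mural markers had a median of 0.23, inhibitory neuron markers of -0.25 and pan-neuronal markers of 0.19. Whether microglial RNA had a part in the values of Cst3 was not tested.

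**Figure D5:**
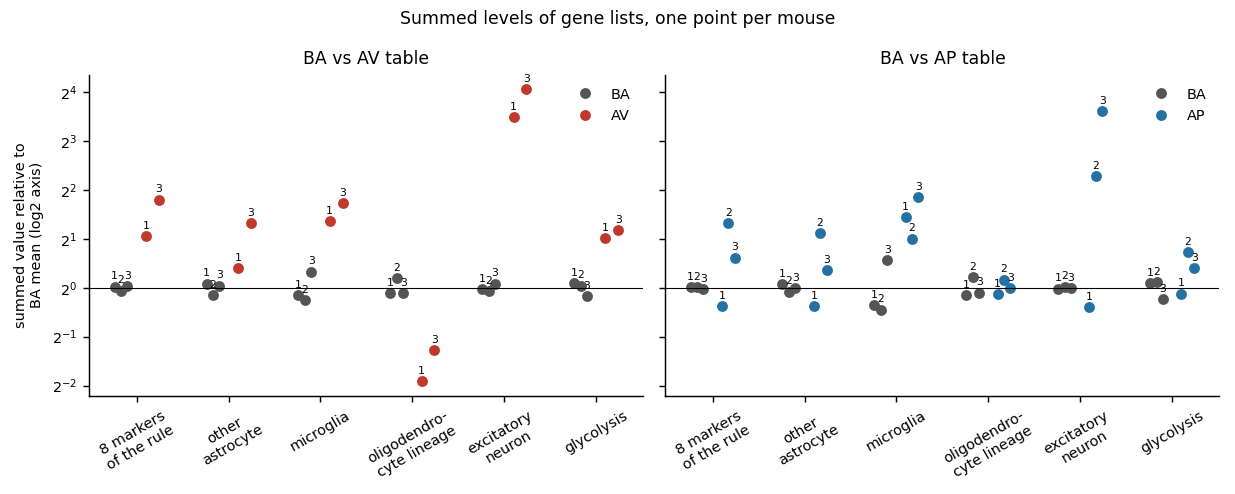
Summed normalized value of 6 gene lists relative to the mean of the BA mice (log2 axis), 1 point per mouse numbered by replicate, for the BA vs AV table (left) and the BA vs AP table (right). In AV mice the 8 markers, the other astrocyte, microglia, excitatory neuron and glycolysis lists lie above and the oligodendrocyte list below the BA mice, and among AP mice replicate 1 lies lowest for the 8 markers, other astrocyte and excitatory neuron lists. In AV mice most of the sum of the 8 markers is Slc1a2.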

How the data were processed

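RNA of YFP-positive cells, labelled pyramidal neurons, from the amygdala of 9 mice was sequenced in stranded libraries. The submitters' processing notes name bcl2fastq 2.20, Salmon 1.2 and GRCm38.p6. The authors deposited a normalized signal per gene and mouse, made by TMM normalization and removal of genes with low counts. ARSyN batch correction is also named in the paper, without saying for which table. Columns of the BA vs AV table start at between 1.426 and 1.988, unlike those of the BA vs AP table. Whether a correction narrowed the spread within groups in 1 table, and so lowered its limma p values, was not tested. The tables were normalized separately, so each comparison stayed within its table. For BA and AP mice every column starts at 2, and 80.4% to 91.9% of its low values lay on steps of 1 read above that (within 0.05 step). This was not nearly all, so no count test was run.

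The 8 members and all lists were chosen with earlier results of these data known. Symbols and exon lengths came from GENCODE M21, which matched 9871 and 11778 identifiers to a symbol. The test was limma 3.58.1 (R 4.3.3), run on log2(value + 1) of every gene in a table with the group as the only term, and p values were adjusted by Benjamini-Hochberg and called under 0.05. NOISeq, the study's tool, was not used here. Correlations used exact permutation over 6 mice (two-sided). Named were the 8 members, the genes of a list with the highest and lowest log2 fold change, and the 3 most similar genes of each member, and the other genes were named after their values were seen. A few genes of the lists are not reported here by name. Deviations from the group mean correlated weakly between same-numbered AP and BA mice (r of 0.0202, 0.121 and 0.0813 for replicates 1, 2 and 3). Between AP and BA mice of different number, r ran lower, from -0.117 to 0.0136. For AV and BA replicates 1 and 3 it was -0.0604 and -0.0389. These values cannot settle whether the numbers pair the mice, and the main test used no pairing. Promoter windows came from RefSeq and were found for 7 of the genes. The scripts were tested on simulated data. Python 3.11.15, numpy 2.4.6, pandas 2.3.3, scipy 1.17.1 and matplotlib 3.10.9 were used.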

Additional observations from a re-analysis of the deposited data

How the results depend on the processing

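In AV mice, 4 markers were called as reported and between 3 and 5 under every alternative, with 3 at an adjusted p of 0.01 in place of 0.05. Cst3, Slc1a2 and Aldoc were also called without any one BA mouse. Without either AV mouse they were called too, but there the spread comes from the BA mice alone, and the lone AV mouse is assumed to vary like them. In AP mice the count was 0 under all alternatives but a variance prior that follows mean expression, under which 1 marker, Cst3, was called with a limma adjusted p of 0.0481. Leaving out 1 mouse at a time, the markers called numbered between 3 and 5 for AV and 0 for AP mice. The pairs with an r of at least 0.8 then numbered between 5 and 11, the most without BA replicate 2, and 6 by Spearman rho.

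With the replicate number as a block, 3 markers were called in AV mice, Aqp4 no longer (log2 fold change 1.21, limma adjusted p = 0.0704), and 970 genes in all in place of 2934. Whether the numbers pair the mice is not given in the sources used here.

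The sign changed for Gjb6 in AV mice with values scaled to equal totals (0.13) and with the replicate block (0.033). Leaving out 1 mouse at a time, its log2 fold change ran from -0.50 to 0.38, with 0.033 without BA replicate 2, and that of Slc7a10 from -0.52 to 0.050. In AP mice these ranges were 0.33 to 1.67 for Slc1a2, 0.0067 to 1.22 for Aldoc, -0.036 to 1.01 for Aqp4, -0.018 to 0.77 for Aldh1l1 and -0.25 to 0.40 for Gjb6, lowest without AP replicate 2, and -0.56 to 0.11 for Slc7a10, highest without AP replicate 3. The cause was not tested. Scaling to equal totals moved the median log2 fold change of all genes in AV mice from -0.026 to 0.17, with 1799 genes called higher and 1219 lower, where 1338 and 1596 were called as reported and 1201 and 1829 after centring on the median. At an adjusted p of 0.01, 1151 genes were called.

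The counted reads behind the values of the BA vs AV table are unknown, and 2 AV mice leave wide intervals. An alternative level per kilobase, with the longest coding transcript in place of all exons, was chosen after seeing the data and gave the same order of markers in BA mice.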
